A study of Mus musculus with 45 samples.

Results

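MHCII+ macrophages were set against MHCII- macrophages of the same kind of mouse: both were sorted from injured skeletal muscle at day 7, in mice whose regulatory T cells were targeted, in the series' 8 h set. The comparison held 6 of the 45 arrays of the series, chosen by their titles: 3 MHCII+ arrays (replicates 1, 3 and 4) and 3 MHCII- arrays (replicates 3, 5 and 6). Both groups came from male C57Bl6 mice aged 12 weeks that carried Foxp3.DTR, had a cardiotoxin injury (a snake toxin that destroys myofibres) and had 8 h of diphtheria toxin (DT) in their titles. Both groups were gated as CD11b+, as positive for the macrophage antigen that Adgre1 encodes, and as negative for Ly6g and SiglecF. Foxp3.DTR places a diphtheria toxin receptor under the promoter of Foxp3, the transcription factor of regulatory T cells, so that DT removes those cells. The labels do not give the moment from which the 8 h was counted. They also do not say whether each array was a different animal, and the p-values then cover only the variation among these samples, which may be technical. Further groups served as a comparison: 3 MHCII+ and 4 MHCII- arrays of DTR- mice in the 8 h set (same sex, strain, age, injury, toxin time and gate, without Foxp3.DTR), and 2 MHCII+ and 3 MHCII- arrays of DTR+ mice in the 24 h set (aged 8 weeks, with no SiglecF step in the gate).

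MHC class II molecules present peptides from ingested material to CD4+ T cells, and their genes are switched on as a group by the co-activator CIITA. In tissues, macrophages high and low in MHCII differ in origin and habit: MHCII-low cells are often long-lived residents rich in scavenger receptors and iron-export proteins, while MHCII-high cells resemble monocyte-derived or dendritic cells. In regenerating muscle, macrophages clear dead fibres early and support new ones later, and regulatory T cells are known to restrain inflammatory macrophage activity.

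RNA was measured on Affymetrix arrays of the Mouse Gene 1.0 ST design, whose deposited linear intensities had medians of 189.3 to 200.3 in the 6 arrays. Values below are log2 intensities per array, and a difference is MHCII+ minus MHCII- in log2 ± SE from limma, fitted over all 45 arrays in 18 groups. A gene passed at a Benjamini-Hochberg adjusted p under 0.05 over the 11074 genes tested. The labels' marker entry reads MHCII- for all 6 samples, and class II expression served as a check of the titles: H2-Ab1, the class II beta chain gene, lay at 13.67, 13.85 and 13.76 in the arrays titled MHCII+, against 12.08, 12.12 and 12.25 in those titled MHCII-. The groups did not overlap, in the order the titles give. The macrophage genes Adgre1 and Csf1r (the CSF1 receptor) lay at 12.59 to 12.96 and 12.35 to 13.13 in MHCII+ arrays, against 13.03 to 13.09 and 13.27 to 13.34 in MHCII- arrays. The genotype label cannot be checked on these arrays. In RNA from a bulk sort, fewer cells of a type and less RNA per cell cannot be told apart.

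The arrays of each group spread, and MHCII+ replicate 1 lay farthest out. The first principal component of the 6 arrays held 52.3% of the variance and placed MHCII+ replicates 1, 3 and 4 at -33.7, 0.448 and -11.3, against 20.1, 12.7 and 11.8 for MHCII- replicates 3, 5 and 6. The next component (25.1%) placed MHCII- replicate 3 (-11) away from MHCII- replicates 5 and 6 (16 and 13), beside MHCII+ replicates 3 and 4 (-13.7 and -12.1), with MHCII+ replicate 1 at 7.85. limma's array quality weights were 0.174, 0.701 and 0.196 for MHCII+ replicates 1, 3 and 4, against 0.228, 1 and 5.36 for MHCII- replicates 3, 5 and 6, so that 3 arrays were low. The residual SD was 0.240 in the MHCII+ group and 0.202 in the MHCII- group, against 0.194 over all arrays, so both groups spread more than the shared estimate on which the p-values rest. The summed linear intensity of 15 T cell genes was 9702 in MHCII+ replicate 1 and 3717 and 3575 in MHCII+ replicates 3 and 4, against 3182 to 3521 in the MHCII- arrays. That of 10 natural killer (NK) cell genes was 1761, 775 and 814 in MHCII+ replicates 1, 3 and 4, against 609 to 655 in MHCII- arrays. Cell cycle genes summed to 31892, 18875 and 22262 in the same MHCII+ arrays, against 23251 to 27213 in MHCII- arrays. The 28 resident macrophage genes summed to 55887, 80964 and 65133 in MHCII+ replicates 1, 3 and 4, against 101899 to 110272 in MHCII- arrays. Replicate 1 was thus the highest MHCII+ array for T cell, NK and cell cycle genes and the lowest for resident genes, while the resident sums of the groups did not overlap with or without it. The counts for gene lists that turn on this array are given without it.

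**Figure D1:**
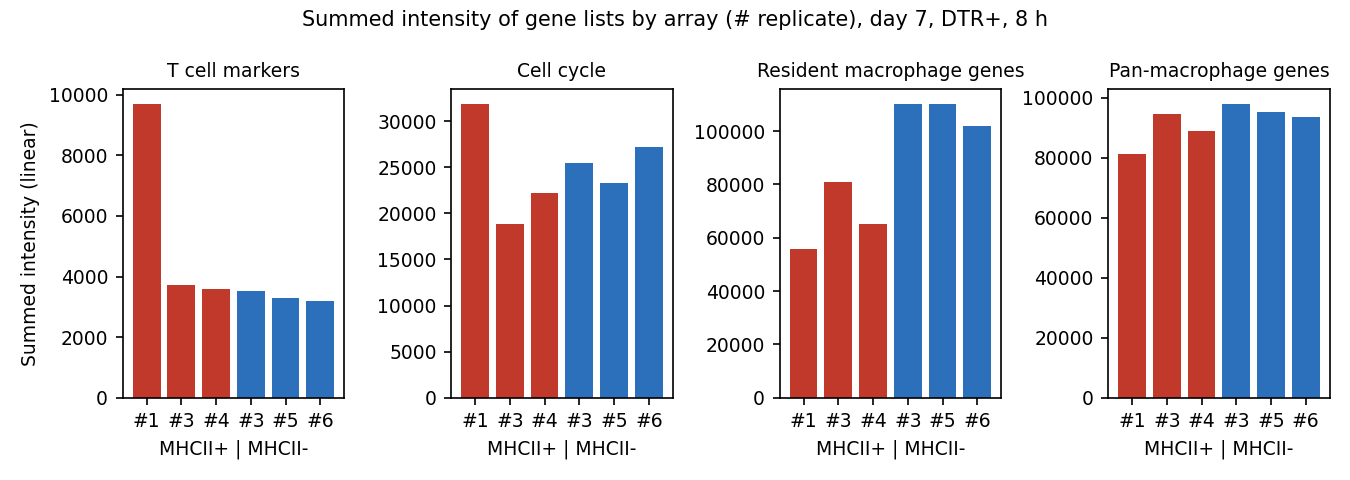
Summed linear intensity of 4 gene lists in each MHCII+ (red, left) and MHCII- (blue, right) array of DTR+ mice in the 8 h set. MHCII+ replicate 1 has a T cell sum of 9702, against 3182 to 3717 in the other 5 arrays, and the resident macrophage sums of the MHCII+ arrays (55887 to 80964) all lie under those of the MHCII- arrays (101899 to 110272).

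Across the genome, 884 of 11074 genes (7.98%) differed between the subsets; 331 were higher in MHCII+ macrophages (2.99%) and 553 were lower (4.99%). The difference reached 1 log2 unit, a doubling, in 66 of the higher and 44 of the lower genes. The median difference over all genes was -0.05. Without MHCII+ replicate 1, 354 genes passed (3.2%), 178 higher (1.61%) and 176 lower (1.59%), among them 157 of the 331 and 159 of the 553. The shares of all genes called higher and lower moved with the array left out, and the list counts below are to be read against them: 4.16% and 9.45% without MHCII+ replicate 3, 1.81% and 2.58% without MHCII+ replicate 4, 3.2% and 4.42% without MHCII- replicate 3, 1.44% and 2.7% without MHCII- replicate 5, and 1.77% and 2.66% without MHCII- replicate 6. The total was 1507 without MHCII+ replicate 3, 486 without MHCII+ replicate 4, 458 without MHCII- replicate 5 and 491 without MHCII- replicate 6. Whichever of the 6 arrays was left out, 99 of the higher and 116 of the lower genes passed each time. Values of the 2 groups did not overlap for 2864 genes (25.9% of those tested), 809 of them called; 3 arrays against 3 cannot go below p = 0.1 in an exact permutation test, so the calls rest on limma's shared variance.

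**Figure D2:**
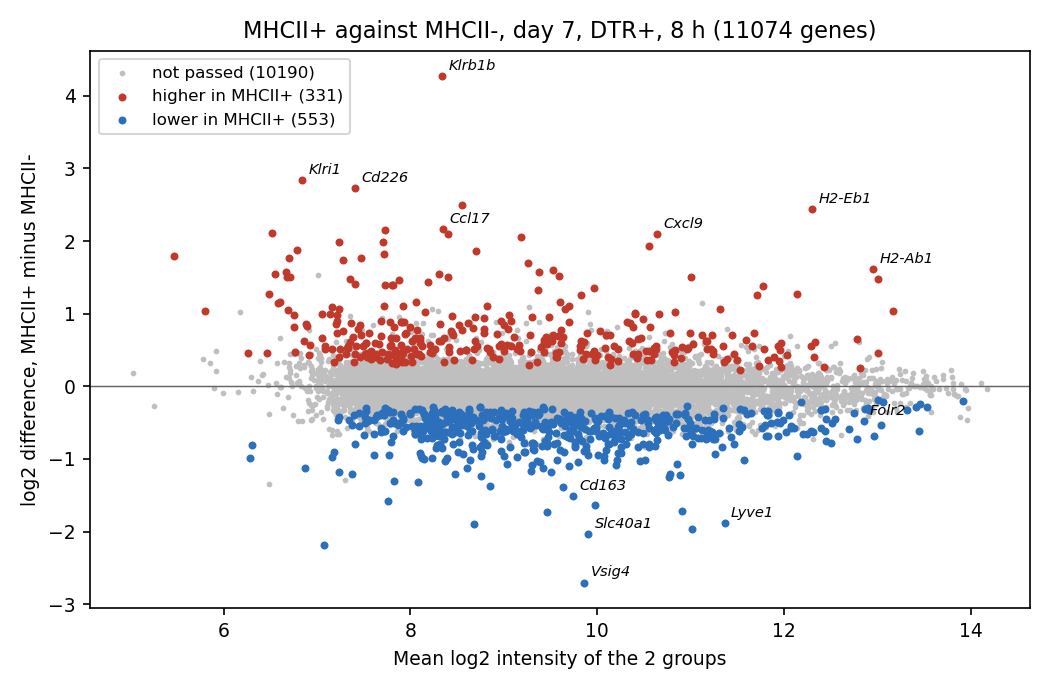
Each point is 1 of the 11074 genes tested, by its mean log2 intensity over the MHCII+ and MHCII- groups (horizontal) and its log2 difference, MHCII+ minus MHCII- (vertical), in DTR+ mice of the 8 h set. Genes higher in MHCII+ arrays (331) are red and genes lower (553) are blue; Klrb1b stands highest at 4.27 and Vsig4 lowest at -2.70.

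The class II genes were higher in MHCII+ macrophages, a difference that the sort on MHCII sets and that checks the gate rather than tests it. H2-Eb1, a class II beta chain gene, lay at 13.17, 13.69 and 13.69 in MHCII+ arrays, against 11.13, 11.04 and 11.07 in MHCII- arrays (2.44 ± 0.19, adjusted p = 1.11e-10). Every MHCII+ array lay more than 2 log2 units above every MHCII- array. H2-Ab1 differed by 1.61 ± 0.13 (7.23e-11), H2-Aa, an alpha chain gene, by 1.48 ± 0.18 (1.07e-06) and Cd74, the invariant chain that guards the peptide groove, by 1.04 ± 0.10 (1.21e-08). H2-Eb2, a further beta chain gene, differed by 1.48 ± 0.23 (8.3e-05). Among accessory genes, H2-DMa, which helps load peptide, differed by 1.27 ± 0.15 (8.63e-07) and H2-Ob, a chain of the modulator of peptide loading, by 0.63 ± 0.12 (0.00103). Ciita, the co-activator, lay at 9.58, 10.42 and 10.49 in MHCII+ arrays, against 8.55, 8.47 and 8.77 in MHCII- arrays (1.57 ± 0.17, 9.34e-08). In contrast, Rfx5 of the RFX complex did not pass (0.00 ± 0.14). Of lysosomal antigen processing, Ifi30 (0.10 ± 0.09) and Ctss, which trims the invariant chain (-0.20 ± 0.12), did not pass. Other lysosomal protease genes passed as lower, among them Ctsl, which is given below. Over the 14 tested genes of the presentation list the median was 0.83, with 9 higher and 0 lower (8 and 0 without MHCII+ replicate 1, median 0.89).

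The promoters of 3 of these genes are shown because class II genes share an X box, contacted by the RFX complex, and a Y box, an inverted CCAAT contacted by NF-Y, on which CIITA assembles. Each line is the 250 bases directly before the RefSeq start in GRCm38.p6, 5′ to 3′ on the gene's strand, at chr17:34305617-34305866 (plus strand, H2-Eb1), chr17:34325425-34325674 (plus strand, H2-Eb2) and chr17:34287824-34288073 (minus strand, H2-Aa). Capitals mark ACNGATG, from the X box, and CCAAT, each searched on both strands, and no 2 marked motifs overlap.
H2-Eb1: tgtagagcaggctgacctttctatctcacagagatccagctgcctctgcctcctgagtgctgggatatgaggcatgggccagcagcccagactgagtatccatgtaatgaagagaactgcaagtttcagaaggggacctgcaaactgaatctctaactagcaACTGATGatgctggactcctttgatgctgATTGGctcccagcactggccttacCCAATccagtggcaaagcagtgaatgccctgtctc
H2-Eb2: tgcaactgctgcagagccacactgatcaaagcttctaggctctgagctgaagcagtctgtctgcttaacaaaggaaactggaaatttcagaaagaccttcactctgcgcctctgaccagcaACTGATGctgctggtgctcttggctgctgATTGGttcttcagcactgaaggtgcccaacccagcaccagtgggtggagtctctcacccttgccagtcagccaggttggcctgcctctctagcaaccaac
H2-Aa: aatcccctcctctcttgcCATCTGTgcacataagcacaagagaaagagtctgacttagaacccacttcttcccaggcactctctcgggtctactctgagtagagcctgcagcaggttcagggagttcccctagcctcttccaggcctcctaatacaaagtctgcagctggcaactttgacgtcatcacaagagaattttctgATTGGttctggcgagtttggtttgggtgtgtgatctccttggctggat
In H2-Eb1 the ACNGATG match begins 88 bases before the start and the inverted CCAAT begins 59 before it, with a CCAAT on the printed strand at 35. In H2-Eb2 they begin at 129 and 100. In H2-Aa the inverted CCAAT begins 48 bases before the start and an ACNGATG match, also inverted, begins at 232. That match differs in strand and spacing from those of H2-Eb1 and H2-Eb2, and it is not taken as the X box of H2-Aa. It is counted below all the same, where strand and spacing were left free. Of the 9 class II genes that passed, 6 had a promoter in the table; 4 of the 6 held ACNGATG, as did 8.31% of all 32851 promoters, and 6 of the 6 held CCAAT, as did 33.8%. The class II counts are by gene, and the shares of all promoters are by promoter entry. A gene with several entries would have more chances of a match. The spacing of 29 bases between the starts of the 2 motifs in H2-Eb1 and H2-Eb2, picked after the sequences were seen, occurred in 5 promoters of the table (0.0152%). A match is a description of letters and shows no binding.

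Receptors of the NK gene complex on chromosome 6 stood highest of all genes. Klrb1b, an inhibitory lectin-like receptor (NKR-P1B), lay at 10.38, 10.71 and 10.34 in MHCII+ arrays, against 6.36, 5.96 and 6.29 in MHCII- arrays, a 19.3-fold difference (4.27 ± 0.18, 1.54e-18). The 3 MHCII+ arrays agreed closely, replicate 1 included, and the value was 4.32 without it. Klri1, another lectin-like receptor gene, lay at 8.11, 8.36 and 8.32 in MHCII+ arrays, against 5.49, 5.34 and 5.44 in MHCII- arrays (2.84 ± 0.20, 6.72e-12). Cd226, an activating adhesion receptor (DNAM-1) that lies on another chromosome, lay at 8.62, 8.87 and 8.81 in MHCII+ arrays, against 6.44, 6.00 and 5.68 in MHCII- arrays (2.73 ± 0.29, 1.02e-07). Neither gene's groups came within 2 log2 units of each other. Klrb1a differed by 2.11 ± 0.25 (3.58e-07), Klra17 (Ly49Q, known in myeloid cells) by 1.87 ± 0.31 (0.000144), Klrk1 (the activating receptor NKG2D) by 1.77 ± 0.24 (3.85e-06) and Klra2 (Ly49B) by 1.39 ± 0.28 (0.00139). Each of these 7 genes passed in all 6 fits that left out 1 array.

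Of 21 NK and lectin-like receptor genes in the table, 13 passed the filter on dim genes, and 8 of these were higher and 0 lower (8 and 0 without MHCII+ replicate 1, 8 and 1 without MHCII+ replicate 3). Their median was 1.39, but 0.64 when dim genes were kept, since the filter favours a gene that is bright in any group. Klri1, Klrb1a and Klra17 averaged 5.42, 5.46 and 5.85 in MHCII- arrays, below the filter level of 7.57. The one-sided count therefore rests in part on the filter too. Of all genes, 2.99% were higher and 4.99% lower (9.45% lower without MHCII+ replicate 3). Clec2d, which encodes the ligand of Klrb1b, was at 0.00 ± 0.21, and Fcer1g, a signalling adaptor, at 0.00 ± 0.05. Of the 10 genes that mark NK cells themselves, 9 lay below the filter in all groups, among them Ncr1 (NKp46), Klrb1c (NK1.1), Eomes, Gzma and Prf1. The tenth, Klrd1 (CD94), differed by 1.04 ± 0.25 (0.00912), a call lost without MHCII+ replicate 4 (0.94, 0.0545) or MHCII- replicate 6 (0.93, 0.0564). The NK sum was highest in replicate 1, as was Klrb1a. Klrb1b, Klri1 and Cd226 were each highest in replicate 3, and Klra17 in replicate 4. The part of NK cells in these values was not tested. Probes of this gene family may bind related transcripts, which was not tested.

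**Figure D3:**
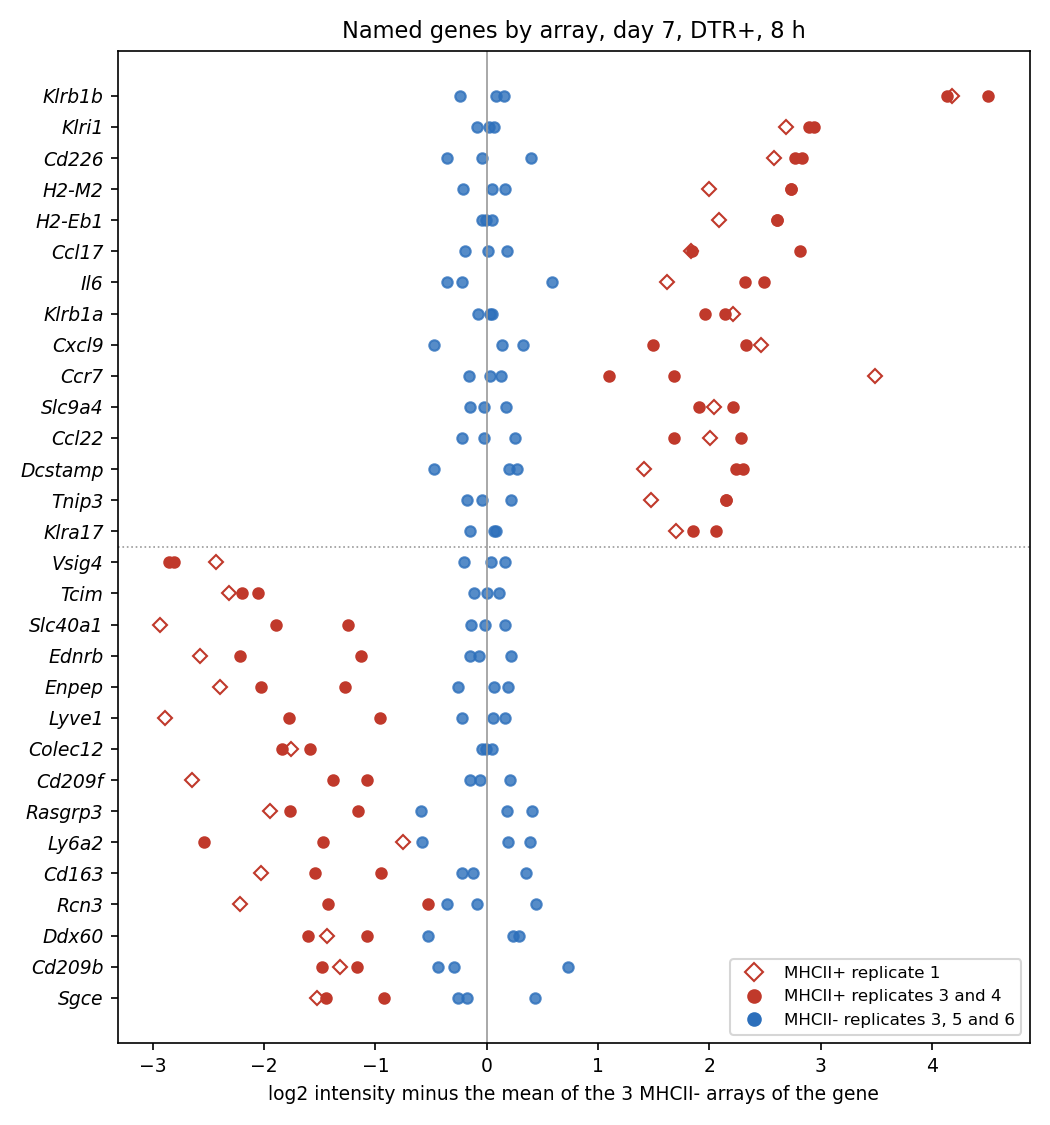
Log2 intensity of the 15 genes with the largest higher and the 15 with the largest lower differences in each array, minus the mean of the 3 MHCII- arrays of that gene. Red symbols are MHCII+ arrays (open diamond, replicate 1) and blue symbols MHCII- arrays, all of DTR+ mice in the 8 h set; Ccr7 is the gene among the higher 15 whose replicate 1 stands farthest from replicates 3 and 4, and for Slc40a1, Lyve1 and Cd209f replicate 1 is the lowest array.

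Genes known from dendritic cells were higher in part. Ccl17 and Ccl22, ligands of CCR4 that attract T cells, lay at 9.10, 9.11 and 10.08 (Ccl17) and 8.25, 7.93 and 8.53 (Ccl22) in MHCII+ arrays, against 7.28, 7.45 and 7.07 (Ccl17) and 6.22, 6.50 and 6.02 (Ccl22) in MHCII- arrays. The differences were 2.16 ± 0.24 (1.71e-07) for Ccl17 and 1.99 ± 0.18 (3.09e-09) for Ccl22. Cd209a (DC-SIGN, a lectin of monocyte-derived dendritic cells) differed by 1.50 ± 0.28 (0.000604), Clec9a, a receptor for dead cells, by 1.55 ± 0.18 (4.28e-07) and the peptidase gene Dpp4 by 1.74 ± 0.20 (4.19e-07). Ccr7, the receptor that guides dendritic and T cells to lymph nodes, lay at 10.85, 8.46 and 9.04 in MHCII+ replicates 1, 3 and 4, against 7.20, 7.49 and 7.39 in MHCII- arrays (2.09 ± 0.34, 0.000126). Replicate 1 was the highest by more than 1 log2 unit, and without it the difference was 1.39 (0.00163). Zbtb46, a transcription factor that marks classical dendritic cells, did not pass (0.05 ± 0.13, 0.826), and Siglech, known from plasmacytoid dendritic cells, was lower (-0.77 ± 0.16, 0.00273). Over 22 tested genes of the dendritic cell list, which shares Ciita with the class II list, the median was 0.54. Of these, 11 were higher and 3 lower, beside 2.99% and 4.99% of all genes. Without MHCII+ replicate 1 they were 10 and 1 (0.67); 1 gene was also lower without MHCII- replicate 5 (9 higher) and without MHCII- replicate 6 (10 higher). The dendritic cell sum was 26319 to 31877 in MHCII+ arrays, against 23870 to 24925 in MHCII- arrays; Xcr1 and Btla lay below the filter. Whether dendritic cells passed the gate was not tested.

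Some chemokine and cytokine genes were higher, and some chemokine genes were lower. Cxcl9, an attractant of CXCR3+ T cells induced by interferon-γ, lay at 12.06, 11.09 and 11.93 in MHCII+ arrays, against 9.93, 9.13 and 9.74 in MHCII- arrays (2.09 ± 0.35, 0.000185; 1.91 and 0.00314 without MHCII+ replicate 1). Il6, an inflammatory cytokine gene that also acts on muscle stem cells, lay at 8.28, 9.15 and 8.98 in MHCII+ arrays, against 7.24, 6.43 and 6.30 in MHCII- arrays (2.15 ± 0.38, 0.000375). For both genes the lowest MHCII+ array lay above the highest MHCII- array by more than 1 log2 unit. Tnip3, an inhibitor of NF-κB signalling, differed by 1.93 ± 0.23 (4.28e-07). Il1b lay at 13.12, 13.09 and 13.12 in MHCII+ arrays, against 12.80, 12.30 and 12.27 in MHCII- arrays (0.65 ± 0.16, 0.00741). Its call was lost without MHCII- replicate 5 (0.58, 0.0518) or MHCII- replicate 6 (0.56, 0.0568). Tnf (-0.10 ± 0.12, 0.625), Il10 (0.18 ± 0.23, 0.636) and Cxcl10 (0.56 ± 0.30, 0.245) did not pass, nor did Il1a (0.74 ± 0.26, 0.0711), which passed with array quality weights (1.02, 0.0259) and with a replicate block (0.69, 0.0497). Of 25 tested chemokine genes 4 were higher and 3 lower (4 and 1 without MHCII+ replicate 1; 3 and 2 without MHCII- replicate 5). Of 30 cytokine and NF-κB genes 4 were higher and 0 lower (4 and 0 without MHCII+ replicate 1), with 2 higher without MHCII- replicate 6 and 2 lower without MHCII+ replicate 3. Of all genes 2.99% were higher and 4.99% lower, and the list medians were 0.15 and 0.16, against -0.05 over all genes.

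Among the costimulatory and checkpoint genes, 5 of 21 were higher and 0 lower, beside 2.99% and 4.99% of all genes. The median was 0.10. Without MHCII+ replicate 1 the counts were 4 and 0 (1.61% and 1.59% of all genes). The count higher was 3 without MHCII+ replicate 4 (1.81%), MHCII- replicate 5 (1.44%) or MHCII- replicate 6 (1.77%). The count lower was 1 without MHCII+ replicate 3 (9.45%) or MHCII- replicate 3 (4.42%). Slamf8, which encodes a receptor that dampens macrophage oxidase activity, lay at 9.35, 10.43 and 10.32 in MHCII+ arrays, against 9.34, 8.07 and 8.73 in MHCII- arrays (1.32 ± 0.27, 0.00183). The MHCII+ replicate 1 value lay just above the highest MHCII- value. Cd86 did not pass (-0.14 ± 0.13, 0.514), nor did Tnfsf18, the ligand of GITR (-0.57 ± 0.19, 0.0542), which passed with median centring (-0.62, 0.0464).

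Other genes of the higher group had roles in membrane fusion, ion transport and matrix. Dcstamp, a protein required for the fusion of osteoclasts and giant cells, lay at 8.13, 8.96 and 9.02 in MHCII+ arrays, against 6.24, 6.92 and 6.99 in MHCII- arrays (1.98 ± 0.24, 9.79e-07). Slc9a4, a sodium/proton exchanger gene, differed by 2.05 ± 0.18 (6.66e-10), and H2-M2, a class I-like gene, by 2.49 ± 0.19 (7.23e-11). Mmp12, the macrophage elastase, lay at 12.30, 12.27 and 12.46 in MHCII+ arrays, against 11.49, 10.60 and 11.15 in MHCII- arrays (1.26 ± 0.21, 0.000132). These 4 genes showed no overlap between the groups, nor did 25.9% of all genes tested. Dcstamp, Slc9a4 and H2-M2 are among the 15 genes with the largest higher differences, which were picked from genes without overlap. Mmp25 was also higher (0.68 ± 0.15, 0.00395), while Mmp27 (-1.03 ± 0.20, 0.00107) and the protease inhibitor gene Timp2 (-0.45 ± 0.09, 0.00128) were lower. Pparg, a lipid-sensing nuclear receptor, was higher (0.71 ± 0.14, 0.00114), as was Socs2, a feedback inhibitor of cytokine signalling (0.88 ± 0.20, 0.00637). Tfec, a transcription factor gene of the Mitf family, was lower (-0.68 ± 0.14, 0.00202), as was Pdgfc, a growth factor gene of mesenchymal cells (-0.80 ± 0.14, 0.0003).

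Resident macrophage genes were lower in MHCII+ macrophages as a group. Vsig4, a complement receptor of resident macrophages, lay at 8.78, 8.40 and 8.36 in MHCII+ arrays, against 11.38, 11.25 and 11.01 in MHCII- arrays, a 6.49-fold difference (-2.70 ± 0.26, 6.31e-09). Lyve1, a hyaluronan receptor, lay at 9.41, 11.34 and 10.53 in MHCII+ replicates 1, 3 and 4, against 12.36, 12.47 and 12.08 in MHCII- arrays (-1.88 ± 0.34, 0.000414; -1.37 and 0.0129 without MHCII+ replicate 1). Vsig4 was alike in the 3 MHCII+ arrays, while Lyve1 spread over nearly 2 log2 units, with replicate 1 lowest. Colec12, a scavenger collectin, lay at 8.57, 8.74 and 8.49 in MHCII+ arrays, against 10.32, 10.38 and 10.29 in MHCII- arrays (-1.73 ± 0.19, 1.4e-07). Ednrb, an endothelin receptor gene, lay at 9.43, 10.88 and 9.79 in MHCII+ arrays, against 11.86, 12.23 and 11.94 in MHCII- arrays (-1.97 ± 0.27, 6.21e-06). Cd163, the haemoglobin scavenger receptor, lay at 8.47, 9.55 and 8.95 in MHCII+ arrays, against 10.37, 10.85 and 10.27 in MHCII- arrays (-1.51 ± 0.27, 0.000356; -1.25 and 0.00913 without MHCII+ replicate 1). The groups did not overlap for any of these 5 genes, nor for 25.9% of all genes tested. All 5 are among the 15 genes with the largest lower differences, which were picked from genes without overlap.

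Further members were Timd4, a receptor for phosphatidylserine on dying cells (-0.79 ± 0.14, 0.000375), Folr2, a folate receptor (-0.48 ± 0.09, 0.000375), Cd209b, a lectin for microbial sugars (-1.32 ± 0.27, 0.00163), Fcna, a ficolin of the lectin pathway (-1.17 ± 0.22, 0.000799), Gas6, a bridge to dying cells (-1.02 ± 0.19, 0.000466), and Pf4 (-0.50 ± 0.11, 0.00436). All of them passed whichever of the 6 arrays was left out. Cd209f (-1.71 ± 0.43, 0.0111) lost the call without MHCII+ replicate 1 (-1.23, 0.14), and Mrc1, the mannose receptor (-0.62 ± 0.15, 0.00707), without MHCII+ replicate 1 (-0.49, 0.0876) or MHCII- replicate 5 (-0.55, 0.051). Of 27 resident genes tested, 22 were lower and 0 higher, beside 4.99% and 2.99% of all genes. All 27 had a difference below 0, with a median of -1.02. Without MHCII+ replicate 1, 13 were lower (1.59% of all genes) and 0 higher, with a median of -0.74. Igf1, a growth factor of muscle repair, was not among those that passed (-0.09 ± 0.11, 0.637).

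Iron and complement genes leaned the same way. Slc40a1 (ferroportin, the cellular iron exporter) lay at 7.98, 9.67 and 9.03 in MHCII+ replicates 1, 3 and 4, against 11.08, 10.90 and 10.78 in MHCII- arrays (-2.03 ± 0.37, 0.000433; -1.57 and 0.0129 without MHCII+ replicate 1). Cp, which oxidises iron for export, averaged 9.27 ± 0.36 in MHCII+ arrays and 10.31 ± 0.14 in MHCII- arrays (SD, n = 3 each), with a limma difference of -1.04 ± 0.23 (adjusted p = 0.00397; -0.97 and 0.0303 without MHCII+ replicate 1). For both, every MHCII+ array lay below every MHCII- array, which for Slc40a1 was a condition of being named. Of 19 iron and heme genes tested, 6 were lower and 0 higher (of all genes, 4.99% were lower), and all 19 had a difference below 0, with a median of -0.54. Without MHCII+ replicate 1 the count lower was 4 (1.59% of all genes) and the median -0.34, while it was 10 (9.45%; median -0.69) without MHCII+ replicate 3 and 3 (2.58%) without MHCII+ replicate 4. The ferritin genes Fth1 and Ftl1 did not pass (-0.05 and -0.11).

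Complement genes C4b and C2 were lower. C4b, which is also in the resident list above, lay at 9.60, 10.82 and 10.09 in MHCII+ arrays, against 11.46, 11.41 and 11.27 in MHCII- arrays (-1.21 ± 0.23, 0.000816). C2 differed by -0.97 ± 0.16 (9.86e-05). The C1q genes did not pass (C1qa -0.67 ± 0.28, 0.133; C1qc -0.28 ± 0.11, 0.101). Of 27 efferocytosis and complement genes, 8 were lower and 1 higher, beside 4.99% and 2.99% of all genes, with a median of -0.38. Without MHCII+ replicate 1, 5 were lower (1.59% of all genes) and 2 higher (1.61%), with a median of -0.14. The count lower was 13 without MHCII+ replicate 3 (9.45%), and 0 were higher without MHCII- replicate 5. Lysosome genes had a median of -0.24, with 9 of 33 lower and 0 higher, beside 4.99% of all genes lower. The count was 1 without MHCII+ replicate 1 (1.59% of all genes), 2 without MHCII- replicate 3 (4.42%), 5 without MHCII+ replicate 4 (2.58%) or MHCII- replicate 6 (2.66%), and 19 without MHCII+ replicate 3 (9.45%). The cathepsin gene Ctsl passed in every one of these fits (-0.59 ± 0.12, 0.00137). Alox5, which opens the leukotriene pathway, was lower (-0.79 ± 0.12, 6.73e-05). Of 18 eicosanoid enzyme genes 4 were lower and 1 higher, beside 4.99% and 2.99% of all genes. The count lower was 7 without MHCII+ replicate 3 (9.45%) and 2 when any other of the 6 arrays was left out. The count higher was 0 without MHCII+ replicate 3, MHCII+ replicate 4, MHCII- replicate 5 or MHCII- replicate 6. Another lower gene was S1pr1, a receptor for exit into lymph (-0.72 ± 0.12, 0.000241).

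Several of the genes with the largest lower differences belonged to none of these lists. Tcim, a small regulator of transcription, lay at 5.86, 6.12 and 5.97 in MHCII+ arrays, against 8.28, 8.18 and 8.06 in MHCII- arrays (-2.19 ± 0.25, 3.4e-07). Enpep, an angiotensin-cleaving peptidase gene, differed by -1.90 ± 0.29 (4.25e-05), Rasgrp3, an activator of Ras, by -1.63 ± 0.29 (0.000372), and Sgce, a sarcoglycan gene, by -1.30 ± 0.21 (0.000122). These 4 passed in all fits that left out 1 array. Rcn3 (-1.39 ± 0.31, 0.00477) lost the call without MHCII+ replicate 1 (-0.98, 0.0876). Ly6a2 (-1.58 ± 0.51, 0.0478) lost it in 5 of the 6 such fits: without MHCII+ replicate 3 (-1.11, 0.169), MHCII+ replicate 4 (-1.64, 0.0977), MHCII- replicate 3 (-1.49, 0.109), MHCII- replicate 5 (-1.87, 0.0518) and MHCII- replicate 6 (-1.39, 0.161).

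**Figure D4:**
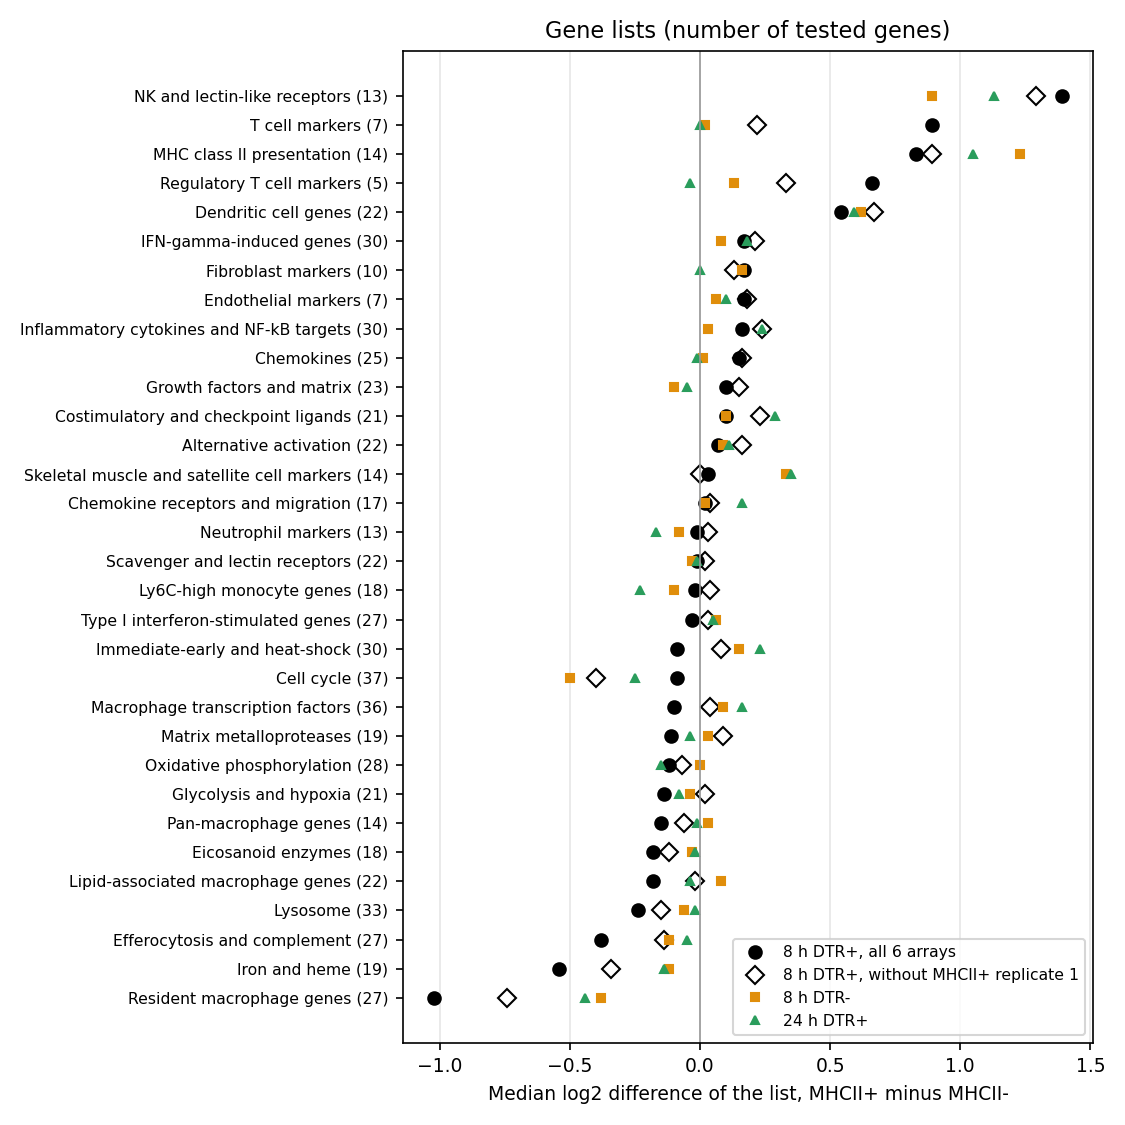
Median log2 difference, MHCII+ minus MHCII-, over the tested genes of each list with 5 or more of them (number in brackets), in 8 h DTR+ arrays with all 6 arrays (filled circle) and without MHCII+ replicate 1 (open diamond), in 8 h DTR- arrays (square) and in 24 h DTR+ arrays (triangle). NK and lectin-like receptors stand at 1.39 and resident macrophage genes at -1.02 in 8 h DTR+ arrays. The NK and lectin-like value is of genes that passed the filter, and it was lower when dim genes were kept. The T cell markers move from the filled circle (0.89) to 0.22 when replicate 1 is left out.

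Counts for other programmes stand beside 2.99% of all genes higher and 4.99% lower. Of 30 interferon-γ-induced genes 2 were higher and 0 lower, with a median of 0.17; the genes were Cxcl9 and Gbp4, a GTPase gene (1.40 ± 0.34, 0.0079), whose call was lost without MHCII+ replicate 1 (1.01, 0.115). The count was 3 higher and 1 lower without MHCII+ replicate 3 and 4 higher without MHCII- replicate 3. Of 27 type I interferon-stimulated genes 0 were higher and 1 was lower, the helicase gene Ddx60 (-1.37 ± 0.25, 0.000563), with a median of -0.03. Of 21 glycolysis and hypoxia genes 0 passed, and of 28 oxidative phosphorylation genes 1 was higher, with 0 higher without MHCII+ replicate 1, MHCII+ replicate 4, MHCII- replicate 5 or MHCII- replicate 6, and 2 higher and 1 lower without MHCII+ replicate 3. Of 22 alternative activation genes 5 were higher and 3 lower, with a median of 0.07. With 1 array left out, 4 were higher each time and 0 to 4 lower (0 without MHCII+ replicate 1). Among single activation markers, Arg1 (-0.06 ± 0.50), Trem2 (-0.19 ± 0.12) and Retnla (0.60 ± 0.26, 0.15) did not pass. Retnla had an adjusted p of 0.0483 in limma on the 6 arrays alone, and it passed in 8 h DTR- mice (1.10 ± 0.24, 0.00653). Gpnmb was lower (-0.29 ± 0.09, 0.0486), a call lost without MHCII+ replicate 1 or MHCII- replicate 3, 5 or 6. Ccr2, the receptor of incoming monocytes, lay at 11.78, 11.88 and 11.87 in MHCII+ arrays, against 10.36, 10.99 and 10.99 in MHCII- arrays (1.06 ± 0.30, 0.0243), with no overlap. Its call was lost without MHCII+ replicate 1 (1.09, 0.0747), MHCII+ replicate 4 (1.05, 0.0728) or MHCII- replicate 3 (0.85, 0.109). Of the 18 genes of Ly6C-high monocytes tested, 1 was higher (Ccr2) and 1 lower (F13a1, also in the resident list), with a median of -0.02. Without MHCII+ replicate 1 the higher gene was Lyz1 (0.59, 0.032), and 0 were higher without MHCII+ replicate 4 or MHCII- replicate 3. Of 14 genes common to macrophages 0 were higher and 2 lower (0 lower without MHCII+ replicate 1), with a median of -0.15.

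How far the cell cycle genes leaned lower depended on which array was left out. Their median rose above 0 only without MHCII+ replicate 3. Of 37 tested, 0 were higher and 1 was lower with all arrays (median -0.09), and 0 and 4 without MHCII+ replicate 1 (median -0.40), while the median was 0.08 without MHCII+ replicate 3. The count lower was 0 without MHCII+ replicate 3, MHCII+ replicate 4, MHCII- replicate 3 or MHCII- replicate 5. In DTR- mice of the 8 h set, 0 were higher and 7 lower, with a median of -0.50, and 0 and 21 with the replicate number as a block, with a median of -0.55.

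Markers of T cells were higher through MHCII+ replicate 1. Cd3e, a chain of the T cell receptor complex, lay at 9.82 in MHCII+ replicate 1 and at 7.52 and 7.47 in MHCII+ replicates 3 and 4, against 7.23, 7.21 and 7.03 in MHCII- arrays (1.11 ± 0.30, 0.0168). Without replicate 1 the difference was 0.34 (0.198), and the call was also lost without MHCII- replicate 6 (1.05, 0.0665). Il2ra, the interleukin-2 receptor alpha chain that regulatory T cells carry, lay at 9.72 in MHCII+ replicate 1 and at 6.33 and 6.36 in MHCII+ replicates 3 and 4, against 5.82, 6.07 and 6.00 in MHCII- arrays (1.51 ± 0.45, 0.0346). Its call was lost without MHCII+ replicate 1 (0.38, 0.466), MHCII- replicate 3 (1.43, 0.0816), MHCII- replicate 5 (1.56, 0.0747) or MHCII- replicate 6 (1.52, 0.0845). Of 7 T cell genes tested 5 were higher with all arrays, beside 2.99% of all genes. Without MHCII+ replicate 1, 1 was higher and 1 lower (Cd28), beside 1.61% and 1.59% of all genes. The gene still higher was Cd2, an adhesion receptor also known on some dendritic cells, at 10.30, 9.21 and 9.37 in MHCII+ arrays, against 7.80, 7.92 and 7.60 in MHCII- arrays (1.86 ± 0.21, 1.41e-07; 1.52 without MHCII+ replicate 1). The count of T cell genes was 3, 2 and 1 without MHCII- replicates 3, 5 and 6. Of the 15 T cell genes in the table, 8 lay below the filter in all groups, among them Cd3d, Cd3g, Cd247 and Cd8a, and Foxp3 did too. Of 5 regulatory T cell genes tested, 4 were higher with all arrays, 0 without MHCII+ replicate 1, and 2, 2 and 1 without MHCII- replicates 3, 5 and 6. The part of other cells in the values of replicate 1 was not tested. Neutrophil genes summed to 3273 to 3422 in MHCII+ arrays, against 4045 to 4244 in MHCII- arrays. Of the 13 tested, 2 were lower and 0 higher (0 and 0 without MHCII+ replicate 1), 6 lay above 0 and 7 below, and the median was -0.01. The B cell genes summed to 4534 to 5137 in MHCII+ arrays, against 4068 to 4829 in MHCII- arrays.

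In DTR- mice of the 8 h set, 245 genes (2.21%) differed between the subsets, 150 higher in MHCII+ (1.35%) and 95 lower (0.858%). Same-numbered samples of these mice deviated together, and with the replicate number as a random block 554 genes passed (5.0%), 280 higher (2.53%) and 274 lower (2.47%). The count was 152 without DTR- MHCII+ replicate 1 and 133 without DTR- MHCII+ replicate 2. Of the genes higher in DTR+ mice, 106 were also higher in DTR- mice, 32.0% of the 331 and 70.7% of the 150. Of the genes lower in DTR+ mice, 64 were also lower in DTR- mice, 11.6% of the 553 and 67.4% of the 95, and 0 passed in opposite directions. With the block in DTR- mice the shared genes were 149 higher (45% of the 331, 53.2% of the 280) and 128 lower (23.1% of the 553, 46.7% of the 274), with 0 in opposite directions. The differences correlated at r = 0.563 across genes, as a description, since genes are not independent replicates. The genes higher in DTR+ mice had a median of 0.61 there and 0.36 in DTR- mice, and those lower had -0.56 and -0.19. Both lists were picked on the DTR+ comparison.

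**Figure D5:**
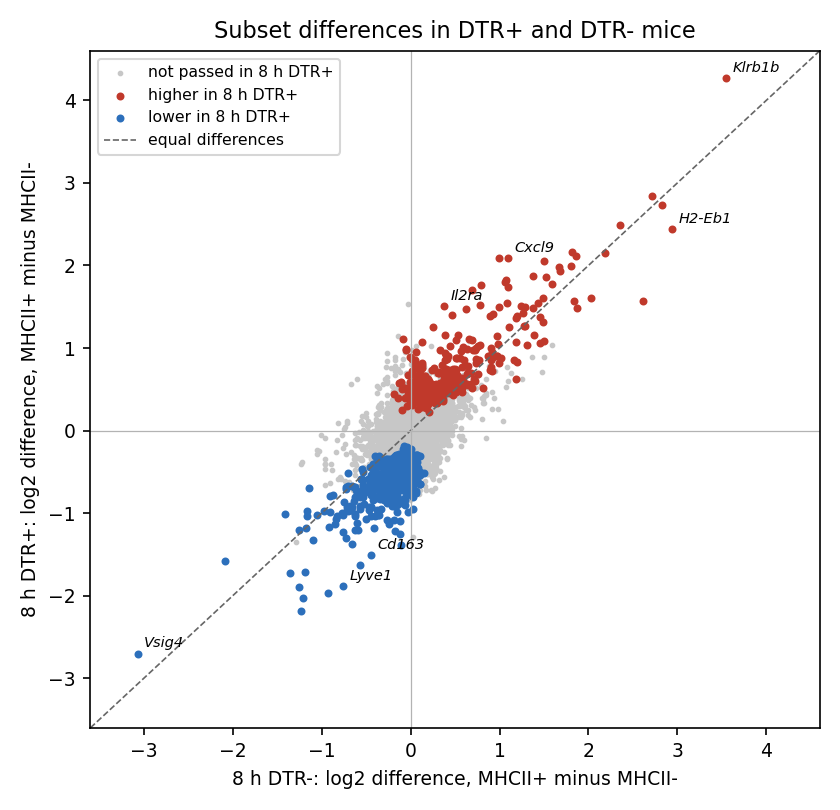
Log2 difference, MHCII+ minus MHCII-, of each tested gene in DTR+ (vertical) and DTR- mice (horizontal) of the 8 h set. Genes called in DTR+ mice are red (331 higher) and blue (553 lower), and the dashed line marks equal differences; Klrb1b (4.27 in DTR+, 3.55 in DTR- mice) and Vsig4 (-2.70 in DTR+, -3.07 in DTR- mice) lie at the ends.

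The difference itself was tested by the interaction of subset and genotype, and 0 of 11074 genes passed (limma; 856 had an unadjusted p under 0.05). With no filter on dim genes 1 passed, and with array quality weights 89 did. Klrb1b lay at 9.74, 10.35 and 10.08 in DTR- MHCII+ arrays, against 6.36 to 6.59 in DTR- MHCII- arrays (3.55 ± 0.16, 6.01e-17). Its subset difference was 0.72 larger in DTR+ mice (95% interval 0.23 to 1.21, adjusted p = 0.598). H2-Eb1 differed by 2.94 ± 0.18 in DTR- mice, so that DTR+ minus DTR- was -0.50 (-1.04 to 0.04), and Vsig4 by -3.07 ± 0.24, a difference of 0.37 (-0.34 to 1.09). Without MHCII+ replicate 1 these were -0.33 and 0.24, and without DTR- MHCII- replicate 3 -0.30 and 0.66; for Vsig4 it was 0.16 without DTR- MHCII- replicate 2 and 0.21 without DTR- MHCII+ replicate 3.

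Several genes had a larger subset difference in DTR+ than in DTR- mice without passing. Cd163 lay at 9.91, 10.16 and 9.29 in DTR- MHCII+ arrays, against 10.14, 10.51, 9.52 and 10.73 in DTR- MHCII- arrays (-0.44 ± 0.25, 0.699). These DTR- groups overlapped. Cd163, Lyve1 and Cxcl9 are among the genes picked for the largest non-overlapping differences in DTR+ mice. That choice by itself favours smaller differences and more overlap in DTR- mice. For Cd163, DTR+ minus DTR- was -1.07 (-1.82 to -0.32, adjusted p = 0.598). Without MHCII+ replicate 1 it was -0.81. For Lyve1 it was -1.12 (-2.06 to -0.18) with all arrays and -0.61 without MHCII+ replicate 1, with DTR- MHCII+ arrays at 11.02 to 11.89 and DTR- MHCII- arrays at 11.60 to 12.83. Cxcl9 lay at 10.67, 10.61 and 10.76 in DTR- MHCII+ arrays, against 8.69 to 10.13 in DTR- MHCII- arrays (1.10 ± 0.33, 0.0778; adjusted p = 0.0329 with the block), and the difference between genotypes was 0.99 (0.01 to 1.98, adjusted p = 0.598). These intervals are not adjusted for the number of genes. Resident macrophage genes had a median subset difference of -1.02 in DTR+ and -0.38 in DTR- mice, where 6 of 27 were lower (11 with the block, median -0.37); without MHCII+ replicate 1 the DTR+ median was -0.74.

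In DTR+ mice of the 24 h set, with 2 MHCII+ and 3 MHCII- arrays, 152 genes (1.37%) differed between the subsets, 126 higher in MHCII+ (1.14%) and 26 lower (0.235%). The count was 71 without MHCII+ replicate 1 of that set and 252 without its MHCII- replicate 3; the first leaves 1 MHCII+ array, which is assumed to vary like the other groups. Of the genes higher at 8 h, 91 were higher at 24 h too, 27.5% of the 331 and 72.2% of the 126; of the genes lower at 8 h, 21 were lower at 24 h, 3.8% of the 553 and 80.8% of the 26. The 8 h and 24 h sets also differ in the age of the mice and in the gate, which cannot be told apart from the time. Klrb1b differed by 4.27 at 8 h and 4.04 ± 0.20 at 24 h, and Vsig4 by -2.70 at 8 h and -3.09 ± 0.29 at 24 h. Ccl17 differed by 2.16 at 8 h and 3.65 ± 0.27 at 24 h, a difference of -1.49 (-2.23 to -0.75, adjusted p = 0.397). None of the 11074 genes passed the test of 8 h against 24 h (limma; 1244 had an unadjusted p under 0.05), and 2 did without MHCII+ replicate 5 of the 24 h set, which again leaves 1 MHCII+ array. Ccl17 was one of them (-2.02, 0.0457), and without MHCII+ replicate 1 of that set its difference was -0.96 (0.614).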

How the data were processed

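RNA of sorted muscle macrophages was measured on Affymetrix arrays of the Mouse Gene 1.0 ST design. The deposited values are linear intensities; the submitters' processing notes name Affymetrix Power Tools and RMA, without a version. Groups were taken from sample titles. Of 24922 probe sets, 21425 had 1 gene symbol, 1399 several and 2098 none; those with 1 symbol gave 19752 genes. Values were taken to log2, and the 11074 genes with a group mean of at least 7.57 (189.5 in linear intensity) in at least 1 group were tested with limma 3.58.1 (18 groups, intensity trend, 27 residual degrees of freedom, Benjamini-Hochberg). The number of arrays limits the precision.

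Genes named are up to 15 per direction with the largest change among those past the threshold and not overlapping (predicted genes, clones and receptor segments only counted), up to 6 with the smallest p in each list described, and a set of key genes; others named were chosen after their values were seen. The members and lists were chosen with earlier results of these data known, and some genes are in more than 1 list. Same-numbered DTR- samples deviated together (correlations 0.527, 0.480 and 0.583), so counts of DTR- calls, overlaps and list counts that the block moves by over 1.5 times are also given with it as a random block; DTR+ subsets share only number 3 (0.270). Alternatives covered filters, normalization, array weights, probe-set summary, fitted arrays and left-out arrays.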

Additional observations from a re-analysis of the deposited data

How the results depend on the processing

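The count of genes that differed between MHCII+ and MHCII- macrophages of DTR+ mice at 8 h was 884. It was 109 (69 higher and 40 lower) when limma was fitted on the 6 arrays alone, and 354 to 1507 (159 to 461 higher, 176 to 1046 lower) when 1 array was left out. In DTR- mice the count of 245 became 127 on the 13 arrays alone, 1140 with array quality weights and 133 to 245 with 1 array left out; in the 24 h set 152 became 563 with weights and 71 to 252. With the replicate number as a random block the counts were 1052 (372 higher and 680 lower), 554 in DTR- mice and 288 in the 24 h set. The test of DTR+ against DTR- gave 89 genes with weights and 1 with no filter, and that of 8 h against 24 h gave 0 to 2. The 15 genes per direction and the key genes held 44 that passed, and 14 of these did not pass in limma on the 6 arrays alone. Among the 14 were Ccr7 (adjusted p 0.11), Lyve1 (0.0818), Cd209b (0.0763) and Folr2 (0.0538). Of the 44, 0 changed sign under any alternative. Of the 11 key genes that did not pass, 2 changed sign (Arg1 and Zbtb46, in fits without 1 array). Other genes named in the text are not part of these counts. The causes were not tested.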
